A study of Mus musculus with 2 samples.

Results

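The genes described here are 10 markers of mural cells, the cells that wrap blood vessels: *Acta2*, *Tagln*, *Myh11* and *Des* of the contractile apparatus, *Pdgfrb*, *Notch3* and *Cspg4* at the cell surface, and *Rgs5*, *Abcc9* and *Vtn*, which mark pericytes. They were taken from a written list of pericyte and smooth muscle genes, and all 10 of the 10 were among the 19465 genes counted in both sections. The samples were 1 formalin-fixed, paraffin-embedded cerebellar section from each of 2 mice. Each C57BL/6J (B6) host, which the study describes as about 5 months old, carried a tumor grown from syngeneic mammary tumor organoids of the HP genotype (HER2V777L; PIK3CAH1047R) and had received no treatment. The HER2 transgene is human and driven by an actin promoter behind a lox-stop-lox element, tumors were started in donor mice with Cre adenovirus in the mammary gland, and the organoid cells were luciferase-labeled and cloned before injection. The labels mark both samples "+cre" and call the organoids HP-F1 in section 1 and HP-B6 in section 2. Organoid label and section therefore cannot be told apart. RNA was profiled by Visium CytAssist, where probes hybridized to transcripts of the section are caught on spots of known array position, and each caught probe is counted once through its unique molecular identifier (UMI). Each spot covers a patch of tissue, often with cells of several types.

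Pericytes sit on capillaries and share a basement membrane with the endothelium, while vascular smooth muscle cells form the contractile layer of arteries and arterioles. Endothelial PDGF-B recruits pericytes through PDGFRβ, and NOTCH3 acts in smooth muscle and pericytes of the brain. In the brain, pericytes take part in the blood-brain barrier. None of the 10 genes belongs to mural cells alone: fibroblasts carry PDGFRβ and, when activated, ACTA2 and TAGLN, mammary myoepithelial cells make ACTA2, oligodendrocyte precursors carry NG2, the product of *Cspg4*, and desmin is also a protein of skeletal muscle.

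Spots were put into regions without use of the 10 genes, by an index of neuron, oligodendrocyte and astrocyte genes. Spots with at least 500 UMIs and 10 genes were kept. A mass was a connected set of at least 50 spots with an index under 0.25. Tumor spots lay more than 2 steps inside the mass, edge spots lay within 2 steps inside or 4 steps outside its border, and neural spots lay farther out with an index of 0.5 or more. Section 1 held 719 tumor, 375 edge and 2196 neural spots, and section 2 held 695, 661 and 2559. Summed over spots, the 6 libraries held 7422098 to 38525561 UMIs. The median spot held 55884 UMIs in the tumor and 7298 in the neural region of section 1, against 41316 and 9476 in section 2. Levels are UMIs per 1000000 (CPM) after TMM scaling, the scaling of edgeR, and can be compared between libraries for 1 gene but not between genes. Intervals in square brackets cover counting error alone, at the 95% level.

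Marker levels were then read in the regions. *Pcp2*, a Purkinje cell gene, stood at 152 and 327 CPM in the neural regions of sections 1 and 2 and at 7.91 and 4.19 CPM in the tumors. Genes of this neural kind built the index, so this difference follows from the region rule and is no check of it. The tumors of the sections were of unlike makeup. *Epcam*, an epithelial adhesion gene, stood at 2135 CPM in the tumor of section 2 and at 7.16 CPM in that of section 1, where *Col1a1*, a collagen gene of fibroblasts, reached 24425 CPM against 202 CPM in section 2. The summed level of 10 fibroblast markers was 62276 CPM in the tumor of section 1 and 732 CPM in that of section 2, and that of 12 epithelial markers was 167 and 13088 CPM. The mass of section 1 is called tumor here by the region rule alone. Its 12 epithelial markers summed to 167 CPM, against 48.3 CPM in neural tissue of that section and 181 CPM in that of section 2. *Gata3* (58.2 against 9.19 CPM), *Esr1* (35.3 against 8.17 CPM), *Krt8* (25.1 against 4.26 CPM) and *Erbb2* (18.0 against 4.69 CPM) were higher in this mass than in its neural tissue. *Cldn4*, *Cldn7*, *Elf3* and *Krt19* were not. *Esr1* was also higher than in the tumor of section 2 (19.1 CPM), while *Gata3*, *Krt8* and *Erbb2* were lower. Because each makeup is seen in 1 section, values of the 10 genes are given for each section.

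**Figure D1:**
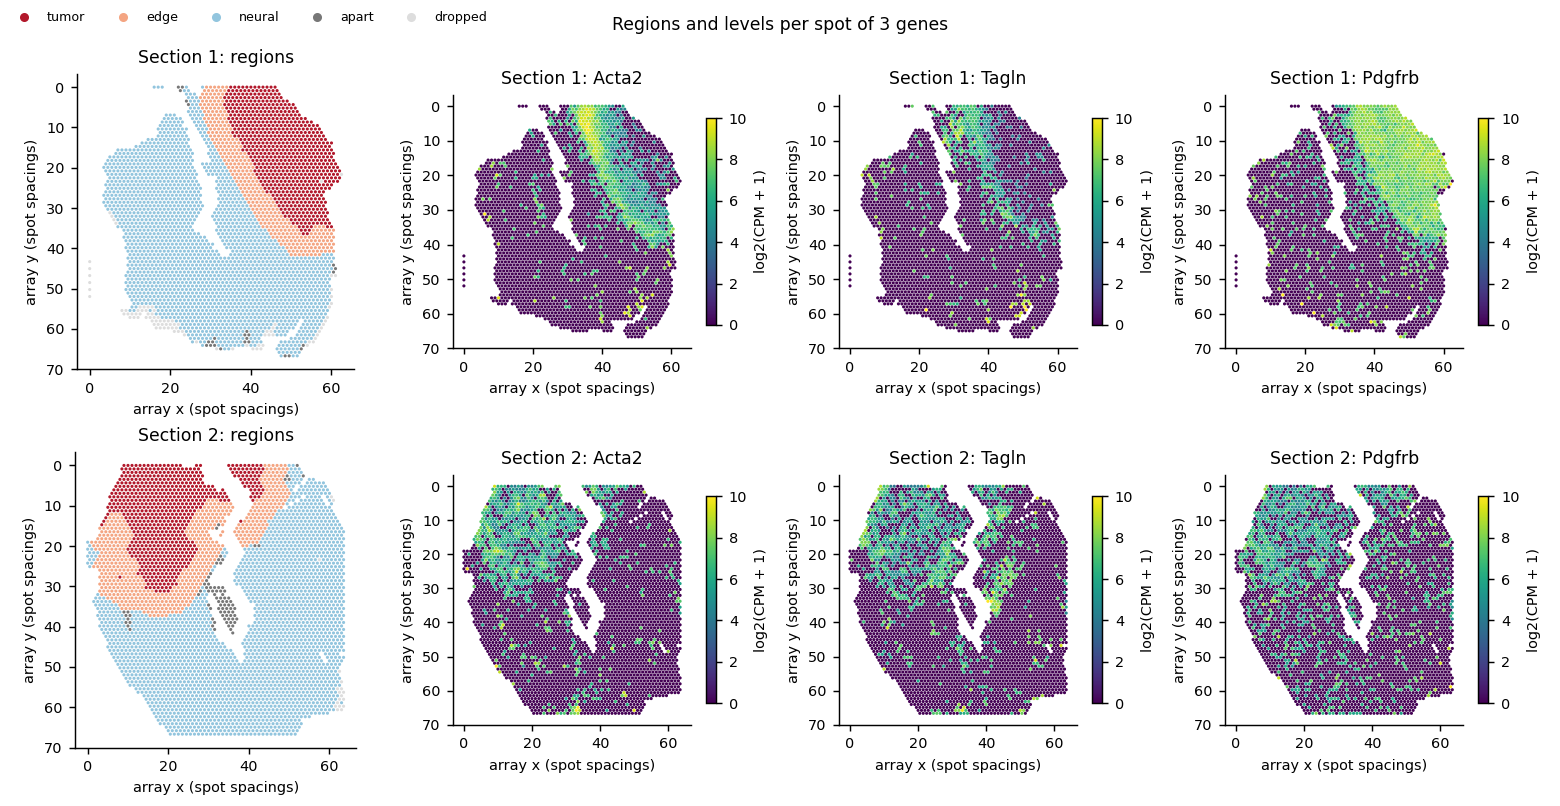
Maps of both sections, with array position in spot spacings on both axes. The left panels color each spot by region (apart, kept but in no region; dropped, under the minimum of UMIs or genes), and the others show log2(CPM + 1) of *Acta2*, *Tagln* and *Pdgfrb*. In section 1 *Acta2* forms a band along the inner side of the border while *Pdgfrb* fills the whole mass, and in section 2 *Acta2* is spread through the mass and *Tagln* also marks a patch of neural spots.

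The contractile gene *Acta2* carries the clearest regional difference, so the start of its promoter is shown. *Acta2* encodes smooth muscle α-actin. Serum response factor, which binds the CArG box, drives many contractile genes together with myocardin. RefSeq promoter windows of build GRCm38 (the assembly behind mm10) were found by symbol for 7 of the 10 genes, and *Tagln*, *Myh11* and *Pdgfrb* had none in the table. Over the 250 bases before the start site, on both strands, no window of the 7 held an exact CArG box, which 1.40% of the windows of 27025 genes did. With 1 of the 6 inner A or T bases exchanged for C or G, only the *Acta2* window of the 7 had matches, 2 in number, against 8.65% of all genes with any and 0.673% with 2 or more. The stretch below lies at chr19:34255374-34255483 on the minus strand, from 110 bases to 1 base before the start site of the table, with the 2 matches, 84 and 34 bases before the start, in capitals. Such a match describes the letters and shows no binding.
Acta2 promoter: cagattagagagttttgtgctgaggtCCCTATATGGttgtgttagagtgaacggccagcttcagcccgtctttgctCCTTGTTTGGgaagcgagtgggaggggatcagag

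*Acta2* was higher in the tumor than in neural tissue in both sections. In section 1 its level was 103 CPM [99.8 to 106.6] in the tumor, 72.8 CPM in the edge and 8.995 CPM [7.75 to 10.4] in neural tissue. In section 2 it was 66.7 CPM in the tumor, 51.3 CPM in the edge and 11.5 CPM in neural tissue. Neither tumor nor edge values overlapped the neural values. With the section as a block, edgeR's quasi-likelihood test gave a log2 fold change of 3.004 (SE 0.33, adjusted p = 0.00608) for tumor against neural tissue and 2.56 (SE 0.32, adjusted p = 0.0279) for edge against neural tissue, with Benjamini-Hochberg adjustment over the 19218 genes tested. Within single sections the tumor held 11.5 and 5.80 times the neural level. In such sums, more cells of a type and more RNA per cell cannot be told apart. Summed markers of other cells that make *Acta2* were also higher in the tumors. Fibroblast markers summed to 62276 CPM in the tumor and 448 CPM in neural tissue of section 1 and to 732 and 128 CPM in section 2. Most of the sum in the tumor of section 1 came from *Col1a1* (24425 CPM), *Col1a2* (20416 CPM) and *Col3a1* (12153 CPM). *Pi16* was lower in the tumor than in neural tissue of both sections (1.64 against 3.14 and 1.59 against 2.24 CPM). In section 2 *Pdgfra* (7.61 against 27.8 CPM) and *Mfap5* (1.34 against 2.03 CPM) were lower too. The other fibroblast markers were higher in both tumors. The 7 myoepithelial markers summed to 61.4 and 51.1 CPM in section 1 and to 2227 and 97.3 CPM in section 2. In the tumor of section 1 most of that sum came from *Pdpn* (34.0 CPM) and *Lmo1* (17.4 CPM). *Trp63* (3.08 against 6.34 CPM) and *Oxtr* (3.94 against 6.48 CPM) were lower there than in neural tissue. The part of either cell type in the level of *Acta2* was not tested.

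*Des* encodes desmin, the intermediate filament of muscle, which pericytes also contain. Its level was 25.2, 26.4 and 8.17 CPM in tumor, edge and neural tissue of section 1 and 20.5, 15.6 and 5.69 CPM in section 2. Both tumor and edge values lay above both neural values. The log2 fold change was 1.74 (SE 0.26, adjusted p = 0.0124 by edgeR) in the tumor and 1.58 (SE 0.26, adjusted p = 0.0369) in the edge. Skeletal muscle markers, 10 genes summed, stood at 18.3 to 31.1 CPM in the 6 libraries, with none at 0. The sum was highest in the neural region of section 1, where *Ttn* gave 12.6 CPM, against 2.70 CPM in the tumor. In that section *Tnnt3* (6.16 against 2.18 CPM), *Myh1* (3.91 against 1.26 CPM), *Acta1*, *Ckm* and *Mylpf* were higher in the tumor than in neural tissue. *Actn3*, *Myh2*, *Myh4*, *Tnnc2* and *Ttn* were lower. The part of skeletal muscle in the level of *Des* was not tested.

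*Tagln* encodes transgelin (SM22α), an actin-binding protein of smooth muscle. It was most abundant in the edge. Section 1 held 17.3 CPM in the tumor, 45.6 CPM in the edge and 10.9 CPM in neural tissue, and section 2 held 42.2, 57.5 and 16.01 CPM. In each section the edge was the highest of the 3 regions. The edge differed from neural tissue by a log2 fold change of 1.97 (SE 0.31, adjusted p = 0.0357 by edgeR), while the tumor against neural value of 1.06 (SE 0.31) had an adjusted p of 0.0618 and was not called.

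*Myh11*, the smooth muscle myosin heavy chain and a gene of fully contractile smooth muscle, went the other way. It was rare everywhere, with 14 to 89 UMIs a library. Its level was 1.87, 1.65 and 4.26 CPM in tumor, edge and neural tissue of section 1 and 1.55, 2.04 and 3.17 CPM in section 2, so that both neural values lay above both tumor and both edge values. The log2 fold change in the tumor was -1.11 (SE 0.26, adjusted p = 0.0363 by edgeR). A fit with no block for section ended the call (adjusted p = 0.0705), as did an edge split into inner and outer parts (0.0572). Counted per spot rather than as CPM, *Myh11* was higher in the tumor, at 0.0904 and 0.0547 UMIs per spot against 0.0401 and 0.0348 in neural tissue. On that scale its log2 fold change of 0.93 still lay below the median of all genes, 1.89.

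Over the whole set, edgeR called 3 of the 10 genes in tumor against neural tissue, 2 higher (*Acta2*, *Des*) and 1 lower (*Myh11*), where 30.7% of all genes tested were called, 14.1% higher and 16.5% lower. The count of members is near that background. The median log2 fold change was 0.06 over the 10 genes and -0.14 over all genes. In edge against neural tissue 3 of the 10 were called, all higher (*Acta2*, *Tagln*, *Des*), where 9.41% of all genes were called, 4.25% higher and 5.16% lower. The median was 0.57 over the 10 and -0.03 over all genes. With 2 sections the edge calls were unsteady. All 3 were lost where the mass was drawn at an index under 0.35 (adjusted p = 0.0607 for *Acta2*, 0.0632 for *Tagln* and 0.0863 for *Des*), and those of *Tagln* and *Des* were also lost without the block (0.0725 and 0.0709) and with a wider edge (0.0508 and 0.0529).

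**Figure D2:**
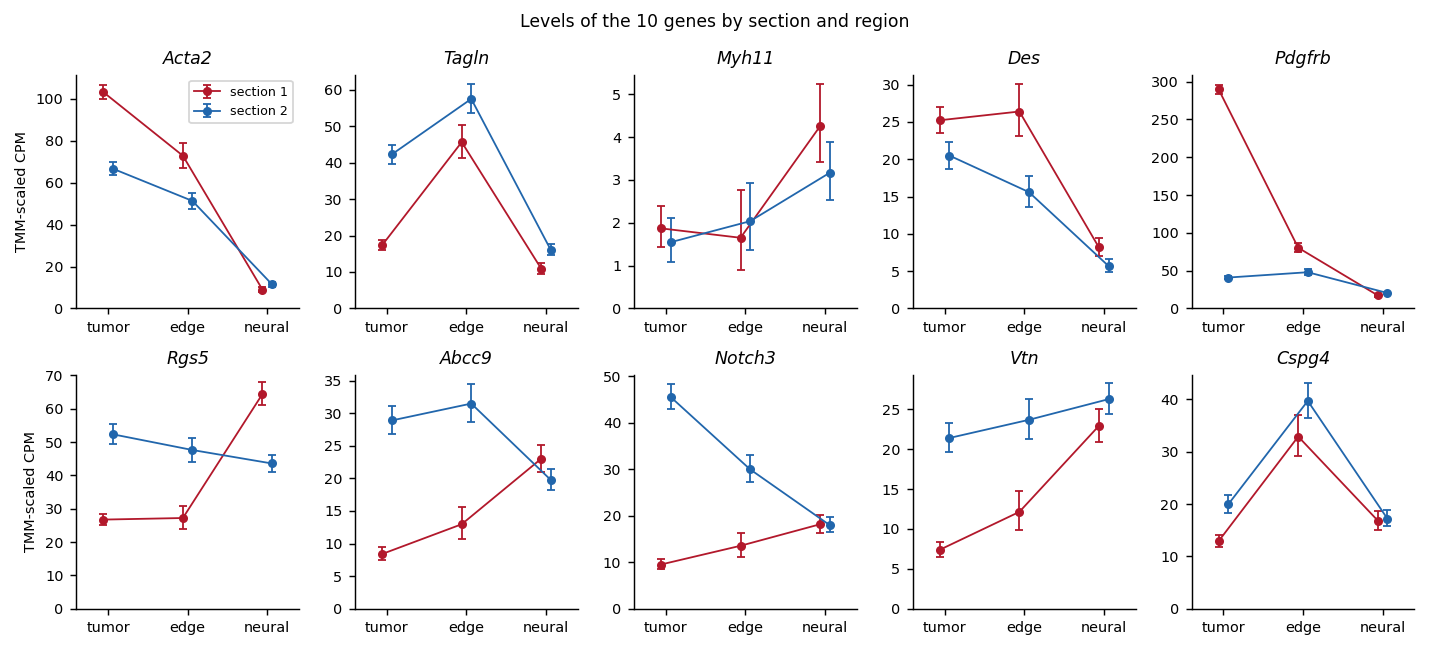
Level of each gene in TMM-scaled CPM (y axis) by region (x axis), with 1 line for each section and bars for the 95% counting interval. *Acta2* and *Des* sit higher in tumor and edge than in neural tissue in both sections, *Tagln* and *Cspg4* peak in the edge, and *Pdgfrb*, *Rgs5*, *Abcc9* and *Notch3* differ between the sections.

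*Pdgfrb*, the receptor for PDGF-B, had the largest difference between sections. Section 1 held 289.6 CPM in the tumor, 80.3 CPM in the edge and 17.3 CPM in neural tissue. Section 2 held 40.9, 47.9 and 20.5 CPM. The tumor stood at 16.8 times the neural level in section 1 and at 1.99 times in section 2, and the edge exceeded neural tissue in both. The shared fold change for tumor against neural tissue, 2.64 on the log2 scale (SE 0.85), had an adjusted p of 0.082 by edgeR and was not called. DESeq2 (adjusted p = 0.0013) and the split edge (0.0435 by edgeR) called it. The level of *Pdgfrb* moved with the fibroblast list, at 62276 CPM in the tumor of section 1 and 732 CPM in that of section 2, and the part of fibroblasts in its level was not tested.

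*Cspg4*, the gene of the NG2 proteoglycan, peaked in the edge in both sections. Its level was 12.9, 32.9 and 16.8 CPM in tumor, edge and neural tissue of section 1 and 19.9, 39.7 and 17.2 CPM in section 2. Both edge values lay above all 4 others. The edge against neural log2 fold change of 1.08 (SE 0.25, adjusted p = 0.0719 by edgeR) and the tumor against edge value of -1.16 (SE 0.25, adjusted p = 0.117) were not called, although DESeq2 (0.00959 and 0.0269) and the split edge (0.0260 and 0.0494) called both. The 8 markers of oligodendrocyte precursors, which also make NG2, summed to 304 and 286 CPM in the edges of sections 1 and 2, between the neural (357 and 349 CPM) and tumor (226 and 116 CPM) sums. *Olig1* gave 203 and 181 CPM of the neural sums. *Matn4* (27.5 against 15.2 and 61.3 against 23.7 CPM) and *Gpr17* were higher in the edge than in neural tissue in both sections. *Olig1*, *Olig2*, *C1ql1* and *Cacng4* were lower in both. In the tumor of section 1, *Pdgfra*, which fibroblasts also make, gave 187 CPM of the sum, and in that of section 2 *Matn4* gave 87.2 CPM. By distance the sum of the 8 markers was highest 3 to 4 steps outside the border, at 587 CPM in section 1 and 464 CPM in section 2. The part of oligodendrocyte precursors in the level of *Cspg4* was not tested.

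*Notch3*, which encodes a Notch receptor found in mural cells, ran in opposite directions. Its level was 9.52, 13.6 and 18.2 CPM in tumor, edge and neural tissue of section 1 and 45.6, 30.0 and 18.0 CPM in section 2. The neural levels were close to each other, and the tumors lay at 0.524 and 2.53 times them. The shared log2 fold change was 0.21 (SE 0.60, adjusted p = 0.8 by edgeR). The part of mural cells in the level of *Notch3* was not tested.

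*Abcc9* encodes SUR2, the regulatory subunit of a potassium channel of pericytes and smooth muscle. Its level was 8.40, 13.0 and 23.0 CPM in section 1 and 28.9, 31.5 and 19.7 CPM in section 2, in the order tumor, edge and neural tissue. The tumor thus held 0.365 times the neural level in section 1 and 1.46 times in section 2. *Rgs5* encodes a regulator of G-protein signaling that is strong in brain pericytes. Its level was 26.8, 27.2 and 64.4 CPM in section 1 and 52.3, 47.6 and 43.6 CPM in section 2. The tumor held 0.415 and 1.20 times the neural level, again in opposite directions. Neither was called in tumor against neural tissue, with log2 fold changes of -0.51 (SE 0.56, adjusted p = 0.501 by edgeR) for *Abcc9* and -0.55 (SE 0.45, adjusted p = 0.37) for *Rgs5*.

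*Vtn* encodes vitronectin, an adhesive glycoprotein that brain pericytes make. It was lowest in the tumor in both sections, at 7.39, 12.1 and 22.9 CPM in tumor, edge and neural tissue of section 1 and 21.4, 23.7 and 26.3 CPM in section 2. The log2 fold change of -0.97 (SE 0.39, adjusted p = 0.127 by edgeR) was not called. Across the 10 genes, 6 had the same direction in both sections in tumor against neural tissue and 4 (*Rgs5*, *Cspg4*, *Abcc9*, *Notch3*) had opposite directions. With 1 section of each makeup, these differences between sections were not tested.

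In tumor against edge, edgeR called 0 of the 10 genes, where 3.44% of all genes were called, 0.0052% (1 gene) higher and the other 661 lower in the tumor. At an unadjusted p under 0.05 there were 2, *Tagln* (log2 fold change -0.90, SE 0.31) and *Cspg4*, and DESeq2 called 1, *Cspg4*, where it called 8.97% of all genes. Both were lower in the tumor than in the edge in each section. *Acta2* (0.45, SE 0.30) and *Des* (0.16, SE 0.25) had adjusted p-values of 0.453 and 0.728.

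**Figure D3:**
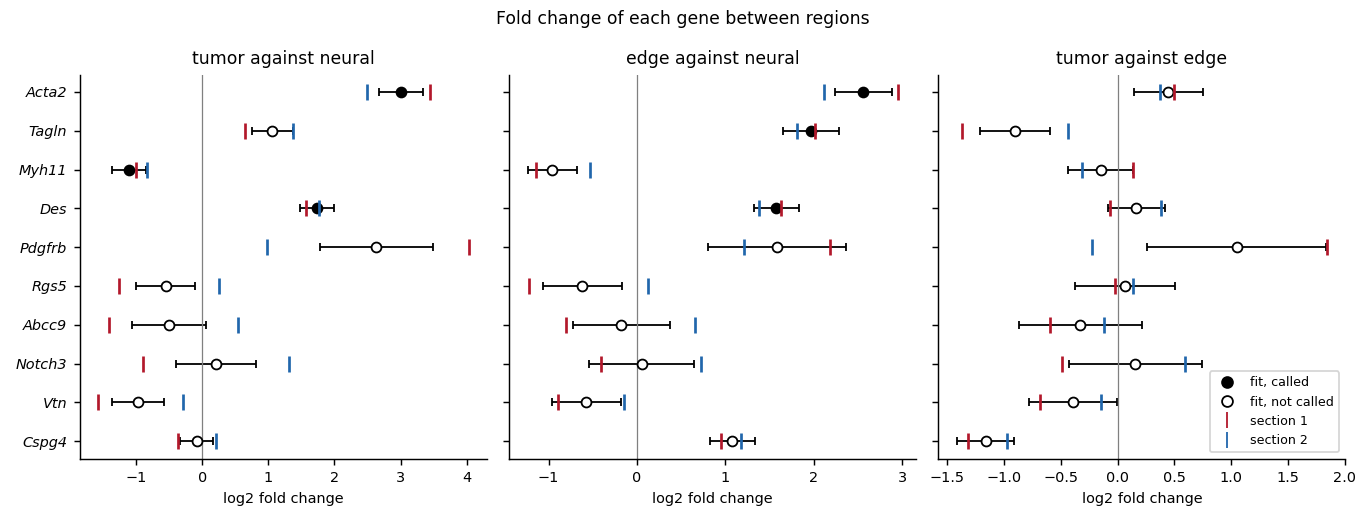
Log2 fold change of each gene in the 3 comparisons (x axis). Circles with bars show the edgeR fit and its SE, derived from the F statistic of the test. They are filled where the adjusted p was below 0.05, and ticks show each section alone. Filled circles mark *Acta2*, *Des* and *Myh11* in the left panel and *Acta2*, *Tagln* and *Des* in the middle panel, while the ticks of *Rgs5*, *Abcc9* and *Notch3* fall on both sides of 0 there.

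Levels were next followed by distance from the border of the mass, in array steps, as CPM without TMM scaling. In section 1 *Acta2* was concentrated in a band inside the border. It stood at 15.6 CPM more than 10 steps inside, 89.6 CPM at 6 to 10 steps, 251 CPM [241 to 262] at 3 to 5 steps and 143.5 CPM at 1 to 2 steps inside, and it stood at 46.0 CPM at 1 to 2 steps and 24.0 CPM at 3 to 4 steps outside. *Des* ran along with it, with 9.72 CPM in the deep mass, 52.1 CPM at 3 to 5 steps inside and 20.1 CPM at 1 to 2 steps outside. The tumor levels of both genes in section 1 thus rested mostly on the outer 10 steps of the mass. In its deep part, with 347 spots, *Des* was close to its level in neural tissue on this scale (9.42 CPM). *Acta2* in the deep part, at 15.6 CPM [13.8 to 17.6], stood somewhat above its neural level of 10.4 CPM.

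*Tagln* peaked nearer to the border of section 1, at 67.0 CPM 1 to 2 steps outside, against 2.88 CPM more than 10 steps inside. *Cspg4* peaked farther out, at 50.1 CPM [40.6 to 61.2] 3 to 4 steps outside, against 8.64 CPM deep inside. From the inside outward in section 1, the peaks of *Acta2*, *Tagln* and *Cspg4* therefore lay in this order, with the zone of 1 to 2 steps inside between the first and the second, although the intervals of *Tagln* at its peak and at 1 to 2 steps inside (55.4 CPM) overlap, as do those of *Cspg4* from 1 to 8 steps outside.

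*Pdgfrb* had no such band. It was highest in the deep mass of section 1, at 283 CPM [275 to 291], kept 244 CPM at 3 to 5 steps inside, and stood at 54.5 CPM just outside. *Rgs5* ran the other way, from 17.9 CPM deep inside to 30.4 CPM just outside and 78.6 CPM more than 16 steps outside. Over the same zones the fibroblast list held 54916, 55665 and 6447 CPM (deep, 3 to 5 steps inside, 1 to 2 steps outside) and the endothelial list 283, 645 and 757 CPM. The myoepithelial list held 35.0, 96.7 and 126.5 CPM, with *Krt17* at 0 in the edge and *Krt5* and *Krt14* at no more than 2.45 CPM in any region of this section.

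In section 2 the profile inside the mass was flatter. *Acta2* lay between 54.0 and 68.9 CPM in all 4 zones inside the border and at 37.8 CPM at 1 to 2 steps and 10.1 CPM at 3 to 4 steps outside. *Tagln* and *Cspg4* were again higher toward the border: *Tagln* was 38.0 CPM deep inside and 70.3 CPM at 1 to 2 steps inside, and *Cspg4* was 15.6 CPM deep inside and 43.8 CPM at 1 to 2 steps outside. *Notch3* was at 40.2 CPM deep inside, 28.7 CPM at 1 to 2 steps outside and 17.9 CPM beyond 16 steps. *Rgs5* stayed between 40.3 and 52.2 CPM across the 9 zones. The myoepithelial list was high in this mass, at 2430 CPM deep inside and 1804 CPM at 1 to 2 steps inside.

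**Figure D4:**
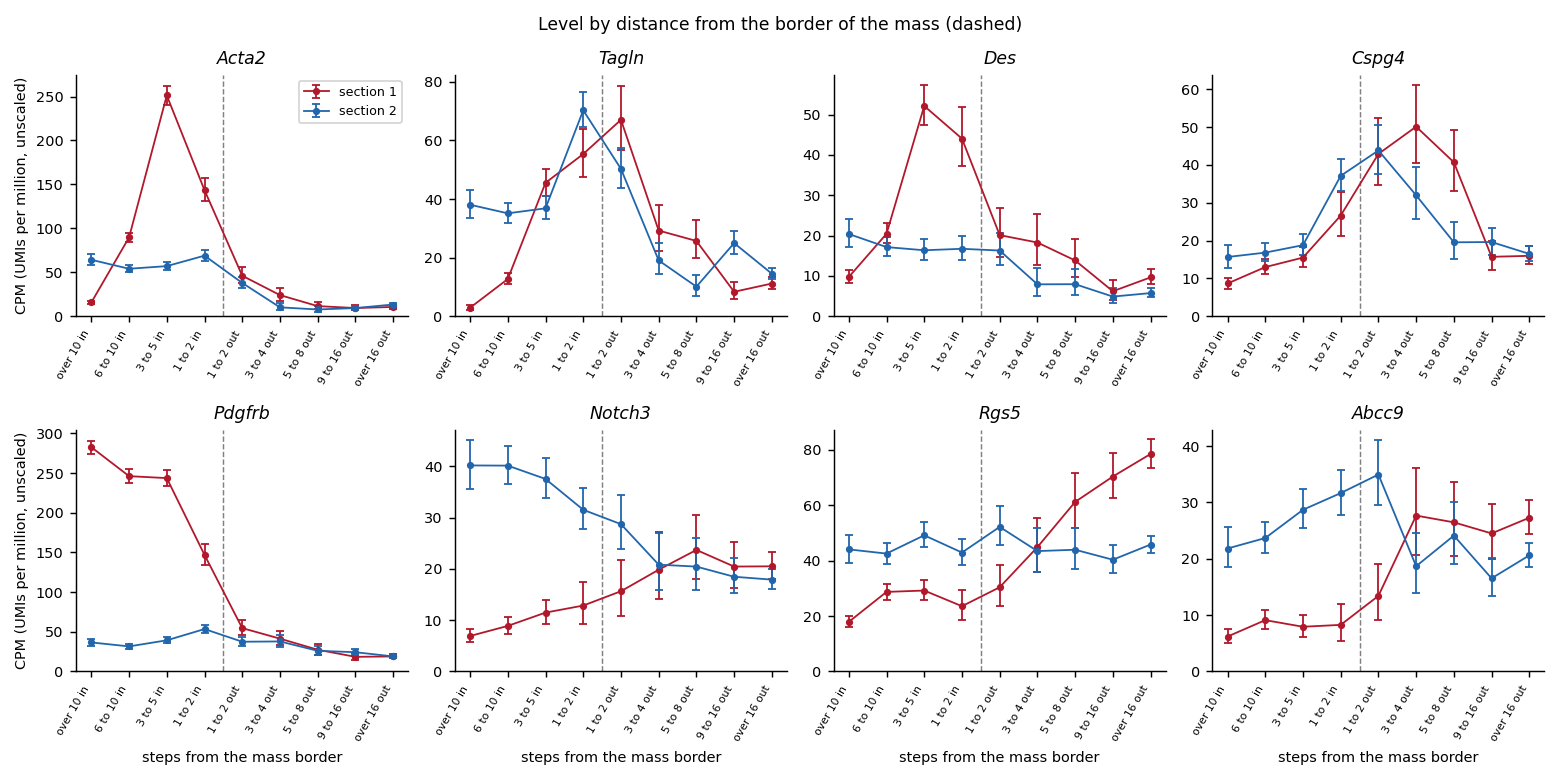
Level of 8 genes (y axis, CPM without TMM scaling) by steps from the border of the mass (x axis, inside to the left of the dashed line), with 1 line for each section and 95% counting intervals. *Acta2* and *Des* peak 3 to 5 steps inside the border of section 1, *Tagln* and *Cspg4* peak near the border of both sections, and *Pdgfrb*, *Rgs5*, *Notch3* and *Abcc9* differ between the masses.

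How the genes went together from spot to spot was described by Spearman correlations of log2 CPM over the tumor spots of 1 section (719 and 695 spots, which share a library and differ in depth). *Acta2* and *Tagln* were the closest pair in both sections, with rho of 0.58 in section 1 and 0.39 in section 2, and *Acta2* and *Des* had 0.47 and 0.30. *Acta2* went with the endothelial list (0.56 and 0.39) in both sections and with the fibroblast list mainly in section 2 (0.15 and 0.41). It went with the myoepithelial list in section 1 (0.45), where that list was mostly *Pdpn* and *Lmo1*, but not in section 2 (-0.10). *Pdgfrb* and *Acta2* were unrelated or opposed in section 1 (-0.12) and weakly related in section 2 (0.29). *Pdgfrb* went with the fibroblast list in both (0.43 and 0.34). With the endothelial list it had -0.07 in section 1 and 0.38 in section 2, the latter no lower than with the fibroblast list there. *Rgs5* went with *Abcc9* (0.17 and 0.32) and *Vtn* (0.27 and 0.29). In section 1 *Notch3* had rho of -0.07 with *Pdgfrb*, 0.19 with *Acta2*, 0.13 with *Rgs5* and 0.07 with *Vtn*. In section 2 these were -0.002, 0.03, 0.14 and 0.12. With the endothelial list *Notch3* had 0.16 in section 1 and -0.03 in section 2, and with the epithelial list -0.06 and 0.10. *Myh11*, the rarest, had its largest value with another of the 10 at 0.104, with *Tagln* in section 2.

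Spots were also compared at equal depth, each thinned to 5000 UMIs, which left out 637 and 341 neural spots and 1 to 32 spots of each other region. *Acta2* was then seen in 23.9% of tumor, 24.6% of edge and 4.49% of neural spots of section 1 and in 24.3%, 13.5% and 5.41% of section 2 (before thinning 68.4%, 52.0% and 7.42%, and 77.1%, 39.2% and 8.71%). *Pdgfrb* was seen in 71.1% of the tumor spots of section 1 and 14.9% of those of section 2. *Rgs5* was seen in 10.3% and 19.4% of tumor spots against 29.0% and 20.7% of neural spots. Single spots with the most *Acta2* held 85 UMIs in the tumor of section 1 and 28 in that of section 2.

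Among genes outside the set, those most like the sum of *Acta2*, *Tagln* and *Myh11* over all 3315 and 3999 kept spots were *Tnc*, *Tagln2*, *Thbs1*, *Emp1* and *Anxa2*, ranked by the smaller of the correlations in both sections among 17312 genes. Their rho ran from 0.458 to 0.509. For the sum of *Pdgfrb*, *Rgs5*, *Abcc9* and *Vtn* they were *Mgp*, *Cd248*, *Igfbp7*, *Col4a2* and *Cdh5*, with rho of 0.207 to 0.385 in section 1 and 0.160 to 0.213 in section 2. In the tumor of section 1 this sum was mostly *Pdgfrb*, with 10067 UMIs against 930 for *Rgs5*, 292 for *Abcc9* and 257 for *Vtn*. These correlations are taken across regions that differ in depth and makeup.

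Other genes of the same cells were taken from written lists. Of 20 further pericyte genes, 4 were called higher in the tumor than in neural tissue by edgeR and 4 lower, where 14.1% of all genes were called higher and 16.5% lower, so that both counts are near the background. Their median log2 fold change was 0.25. The higher ones were *Anpep* (4.21, adjusted p = 0.00692), which encodes the peptidase CD13, *Cd248* (3.49, 0.0243), which encodes endosialin, *Foxc1* and *Gper1*, of which fibroblasts can make the first 3. *Anpep* stood at 65.2 CPM in the tumor and 2.27 CPM in neural tissue of section 1 and at 30.5 and 2.70 CPM in section 2. *Cd248* was at 224 and 8.56 CPM in section 1 and at 46.4 and 9.46 CPM in section 2. *Foxc1* was at 32.3 and 9.19 CPM in section 1 and at 220.02 and 11.1 CPM in section 2. These genes were thus higher in both tumors, at levels that differed between the sections. *Anpep* and *Cd248* stood higher in the fibroblast-rich tumor of section 1, and *Foxc1* in the epithelial tumor of section 2. The cells that made them were not tested. The lower ones were *Atp13a5*, *Slc6a20a*, *Ebf1* and *Pdzd2*. *Kcnj8*, the channel partner of SUR2, and *Higd1b* had log2 fold changes of -0.02 and -0.29 and were not called. In the edge 2 were higher than in neural tissue (*Anpep*, *Ifitm1*) and none lower, against 4.25% and 5.16% of all genes.

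Of 21 further smooth muscle genes, 7 were called higher in the tumor and 2 lower, against 14.1% and 16.5% of all genes, with a median of 0.78. The largest among the higher were *Crip1* (4.51, adjusted p = 0.012 by edgeR) and *Filip1l* (3.37, 0.0393). Both reached higher levels in the tumor of section 2. *Crip1* was at 337 CPM in the tumor and 26.4 CPM in neural tissue of section 1 and at 1803 and 38.8 CPM in section 2, and *Filip1l* was at 56.9 and 11.8 CPM in section 1 and at 354 and 12.6 CPM in section 2. The lower ones were *Ppp1r14a* (-3.55, 0.00987), which encodes the myosin phosphatase inhibitor CPI-17 and is also made in oligodendrocytes, and *Pln*, the gene of phospholamban. The contractile genes *Smtn* (3.07, adjusted p = 0.018 by edgeR) and *Cald1* (2.87, 0.00563) were also called higher in the tumor. So were *Tpm1* (2.52, 0.032) and *Actg2* (2.20, 0.0228). The contractile genes *Cnn1* (0.54), *Mylk* (0.78), *Lmod1* (0.28) and *Myl9* (-0.05) were not called. In the edge *Crip1* and *Cald1* were higher than in neural tissue, where 4.25% of all genes were. Summed, the 21 genes stood at 1681 CPM in the tumor and 994 CPM in neural tissue of section 1. In section 2 the sums were 7668 and 966 CPM, so that the excess was larger in the epithelial tumor. The cells that made these genes were not tested.

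Of 23 genes for signals to mural cells and their control, 6 were called higher in the tumor and 4 lower, against 14.1% and 16.5% of all genes, with a median of 0.46. *Pdgfb*, the ligand of PDGFRβ, was higher in the tumor (1.95, adjusted p = 0.00693 by edgeR) and in the edge (1.60, 0.0304). Its level was 61.2 CPM in the tumor and 19.2 CPM in neural tissue of section 1 and 139 and 29.7 CPM in section 2. *Hes1*, a Notch target, was higher in the tumor (1.92, 0.0309), as were the ligand genes *Jag1* and *Pdgfa* and the genes *Srf* and *Mrtfa*, which encode serum response factor and its coactivator. *Kcnk3*, a potassium channel gene, was lower (-3.35, 0.00521), as were the Notch targets *Hey1* and *Hey2* and the endothelin receptor gene *Ednrb*. The level of *Kcnk3* was 4.23 CPM in the tumor and 39.0 CPM in neural tissue of section 1 and 4.64 and 51.2 CPM in section 2. The cells that made these 4 lower genes were not tested. In tumor against edge, 2 of the 23 were called, *Kcnk3* and *Ednrb*, both lower in the tumor, where 3.44% of all genes were.

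Endothelial genes, of cells that mural cells cover, were called higher in the tumor in 5 of 11 and lower in 1, against 14.1% and 16.5% of all genes, and higher in the edge in 6 of 11, against 4.25%. *Cdh5*, the gene of VE-cadherin, was higher in the tumor (1.48, adjusted p = 0.01 by edgeR) and *Kdr*, the VEGF receptor gene, likewise (1.47, 0.0172). *Slco1a4*, a transporter gene of the blood-brain barrier, was lower (-4.30, 0.017). Without a call, *Flt1* (46.0 against 77.4 CPM), *Esam* (32.7 against 46.8 CPM) and *Sox17* (9.49 against 11.9 CPM) were also lower in the tumor of section 1. In section 2 *Sox17* was lower too (7.04 against 10.8 CPM), while *Flt1* and *Esam* were higher. The remaining genes of the list were higher in both tumors. The summed endothelial level was 474, 623 and 419 CPM in tumor, edge and neural tissue of section 1 and 602, 866 and 457 CPM in section 2, highest in the edge in both.

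The scale mattered because tumor spots held more UMIs than neural spots. Counted per spot, all 10 genes were higher in the tumor than in neural tissue in both sections. For *Acta2* the ratio of UMIs per spot was 58.9 in section 1 and 18.7 in section 2, and for *Pdgfrb* it was 86.1 and 6.42. For *Rgs5* it was 2.13 and 3.87, although its share of UMIs was lower in the tumor of section 1. For *Vtn*, with a lower share in both tumors, it was 1.66 and 2.62. On this scale the median of all genes stood at a log2 fold change of 1.89, so only differences beyond that exceed the shift of the typical gene, and all 10 genes were called where 83.5% of all genes were.

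**Figure D5:**
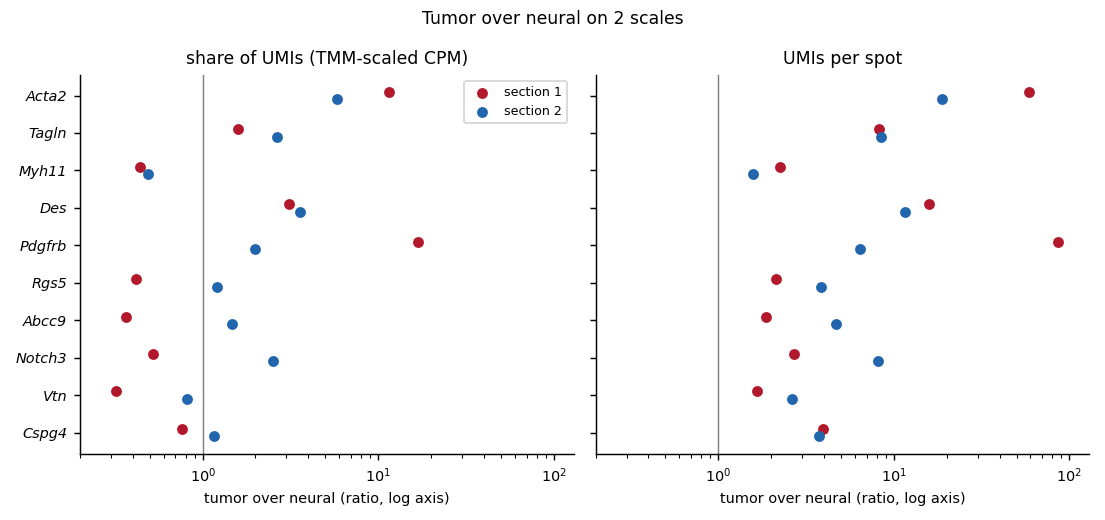
Ratio of tumor to neural tissue for each gene on a log axis, as share of UMIs (left) and as UMIs per spot (right), for each section. All points on the right lie above 1, from 1.57 for *Myh11* in section 2 to 86.1 for *Pdgfrb* in section 1, while on the left 6 of the 10 genes have at least 1 section below 1.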

How the data were processed

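UMIs of 2 sections were used. The authors counted UMIs per gene and spot under tissue with Space Ranger 2.1.1 on mm10, per the submitters' processing notes, and the deposited values are raw counts without normalization. No column belonged to another sample. The 3096 barcodes found in both sections mark array positions, not shared cells. The study's own spot clusters were not used, and regions were built from 3 lists of neural genes. UMIs were summed by section and region, filtered and TMM-scaled, and tested with edgeR 4.0.16 (glmQLFit, robust) in R 4.3.3 with region and section, 2 residual degrees of freedom, and Benjamini-Hochberg adjustment. A gene was called at an adjusted p below 0.05. Each SE given is the absolute log2 fold change divided by the square root of the F statistic of the quasi-likelihood test. The section entered as a block because its regions share 1 mouse, and the common dispersion was 0.0959 with it and 0.166 without it. Fold changes within 1 section added 0.5 CPM. Intervals are exact Poisson. The fit was also run on simulated counts, drawn from 1 mean profile and 1 dispersion with known changes in the tumor libraries. Those counts held no difference between sections, so the run is no check on tumors of unlike makeup. Alternatives, 14 planned and 2 added after the data were seen, included DESeq2 1.42.0. Profiles and plots used Python 3.11.15, numpy 2.4.6, scipy 1.17.1, pandas 2.3.3, scikit-learn 1.9.0 and matplotlib 3.10.9. Precision is limited by the 2 sections.

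The members and lists were chosen with earlier results of these data known. All 10 members are named, the 3 called genes of each list with the largest change in tumor against neural tissue could be named, and 5 genes most alike each of the 2 sums. Other genes, such as *Jag1*, *Kcnj8* and *Cnn1*, and members of short lists of calls were named after their values were seen. Marker lists for macrophages (2 of 8 called higher in the tumor, none lower) and for choroid plexus and meninges (3 of 8 lower, none higher) were run too.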

Additional observations from a re-analysis of the deposited data

Results flagged for a closer look

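Spots in no region were looked at for the 10 genes. In section 1, 25 such spots with 67294 UMIs in all held *Pdgfrb* and *Notch3* at 74.3 CPM each, without TMM scaling, from 5 UMIs each [24.1 to 173], against 19.9 and 20.9 CPM in the neural spots of that section. In section 2, 84 such spots, in which *Ttr* of the choroid plexus reached 133424 CPM, held *Pdgfrb* at 34.5 CPM from 31 UMIs [23.4 to 48.9] against 20.9 CPM in neural spots. In these 3 cases the counting interval lay above that of the neural spots, and the rest of the 10 genes did not pass that limit with more than 3 UMIs.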

How the results depend on the processing

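*Acta2* and *Des* in tumor against neural tissue kept direction and call under every other setting with a test in CPM (15), with log2 fold changes of 2.70 to 3.12 and 1.45 to 1.87. The number of members called in tumor against neural tissue went from 3 to 5 with DESeq2 and to 10 with UMIs per spot (an alternative chosen after seeing the data), and in edge against neural tissue from 3 to 1 with no replicate block, to 1 with an edge of 3 steps inside and 6 outside and to 0 with a mass index under 0.35. In tumor against edge it went from 0 to 1 with DESeq2 and to 1 with the edge split. In the same order, the share of all genes called went to 38.5%, 83.5%, 6.53%, 10.9%, 4.65%, 8.97% and 6.73%, a larger share with the wider edge although fewer members were called. Directions turned for uncalled genes, apart from *Myh11*, and mostly near 0. With UMIs per spot the log2 fold change was 1.49 for *Rgs5*, 0.93 for *Myh11*, 1.94 for *Cspg4*, 1.53 for *Abcc9* and 1.06 for *Vtn* in tumor against neural tissue, 0.54 for *Rgs5*, 0.16 for *Myh11*, 0.99 for *Abcc9* and 0.57 for *Vtn* in edge against neural tissue, and 0.78 for *Myh11*, 0.54 for *Abcc9* and 0.48 for *Vtn* in tumor against edge. That follows from the scale, which moves the median of all genes to 1.89, 1.07 and 0.92. *Cspg4* in tumor against neural tissue went to 0.0472 with RLE factors, 0.0473 with DESeq2 and 0.19 with a mass index under 0.35. With library size alone, *Notch3* went to -0.0706, -0.0006 and -0.0701 in the 3 comparisons, and *Rgs5* and *Des* in tumor against edge to -0.16 and -0.0826. In edge against neural tissue *Abcc9* went to 0.0587 with no replicate block, and *Notch3* to -0.0263 with the index under 0.35 and to -0.0803 with k-means regions. In tumor against edge *Rgs5* went to -0.12 with the index under 0.15, -0.0804 with the wide edge and -0.0187 with only the larger piece of mass (added), *Acta2* to -0.0203 and *Des* to -0.21 with the index under 0.15, *Myh11* to 0.0404 with the larger piece, and *Vtn* to 0.12 with k-means regions. The cause was not tested. With 1 section left there is no test, and the called genes kept their direction. All 60 shares of spots were higher before thinning. At the depth here *Myh11*, with 14 UMIs in 1 edge, is the gene that counting limits most.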

Other observations

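*Tagln* was not even over neural tissue. Connected neural spots were gathered where *Tagln*, over a spot and its neighbors, reached 4 times its neural mean, in pieces of at least 50 spots, a rule set after the maps had been seen. Section 2 had 1 such piece, of 102 spots near the cleft of the section, with 149 of the 450 neural UMIs of *Tagln* (33.1%) and 3.35% of all neural UMIs. *Tagln* stood at 161 CPM there and at 11.3 CPM in the rest of the neural spots, values that the rule used. *Acta2*, which the rule did not use, stood at 5.40 CPM [1.75 to 12.6] in the piece and 11.9 CPM [10.6 to 13.3] in the rest, and *Myh11* at 2.16 CPM [0.262 to 7.81] and 3.26 CPM. *Rgs5* was at 63.8 CPM [48.5 to 82.2] against 43.7 CPM and *Pdgfrb* at 33.5 CPM [22.8 to 47.6] against 20.4 CPM.

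Section 1 had 1 piece of 54 spots, with a median of 2665.5 UMIs a spot and *Tagln* at 181 CPM. There *Acta2* stood at 87.5 CPM [47.9 to 146.9] against 9.67 CPM in the rest, *Myh11* at 43.8 CPM [17.6 to 90.2] against 4.55 CPM and *Des* at 50.02 CPM [21.6 to 98.6] against 9.05 CPM. Among the other members, *Vtn* stood in that piece at 81.3 CPM [43.3 to 139] against 25.9 CPM and *Abcc9* at 68.8 CPM [34.3 to 123] against 26.1 CPM. *Rgs5* was at 125 CPM [76.4 to 193] against 73.8 CPM [69.8 to 77.9], with intervals that overlap. *Pdgfrb* stood at 18.8 CPM [3.87 to 54.8] against 19.9 CPM and *Cspg4* at 18.8 CPM [3.87 to 54.8] against 19.4 CPM. *Notch3* was at 31.3 CPM [10.2 to 73] against 20.9 CPM. In the piece of section 2, *Des* stood at 6.48 CPM [2.38 to 14.1] against 5.77 CPM, *Vtn* at 37.8 CPM [26.3 to 52.6] against 26.4 CPM and *Abcc9* at 25.9 CPM [16.6 to 38.6] against 19.9 CPM. These are single pieces in single sections, and the difference between them was not tested.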
